A study of Homo sapiens with 4 samples.

Results

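The metallothionein genes MT1E, MT1F, MT1G, MT1H, MT1M, MT1X and MT2A, with MTF1, the gene of the transcription factor that turns them on, were followed across 4 human colorectal cancer cell cultures. These 8 of the 19775 genes that the array read were taken through every probe set annotated to them, 14 among the 54675 on the array: 11 for the metallothioneins and 3 for MTF1. The arrays carried 1 culture each. HCT116, a line from a colorectal carcinoma, is represented by the arrays HCT116-Vec and HCT116-CDX1, and LS174T, a mucin-producing colon adenocarcinoma line, by those titled LS174T-siVec and LS174T-siCDX1. From these titles Vec and siVec were taken as vector controls, CDX1 as raised and siCDX1 as lowered expression of the homeobox gene CDX1. The labels did not give the constructs, the clones or the culture conditions such as metal content of the medium, and what the 4 cultures share beyond colorectal origin and a modification is known from the names alone. Each level was the authors' RMA expression value on the log2 scale. When 2 arrays were compared, a probe set counted as measured if its brighter reading was at least 6. Such a set or gene is said to have risen, fallen or changed where the readings differed at least 2-fold, which is 1 on the log2 scale. There were no replicate cultures, so the spread that belongs to each difference is unknown and precision is limited by the number of arrays.

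Metallothioneins are small proteins rich in cysteine that bind zinc, copper and cadmium through their thiol groups, and they buffer these metals in the cell. When zinc rises, the zinc finger protein MTF1 moves to the nucleus and binds metal response elements in front of the metallothionein genes and of the zinc exporter gene SLC30A1. In the intestine they are known as sinks for dietary zinc and copper in epithelial cells, and several of them are known to be lowered in many colorectal tumours. The functional MT1 and MT2A genes stand side by side in a cluster on chromosome 16, where RefSeq (GRCh38.p14) places them with pseudogenes in the order MT4, MT3, MT2A, MT1L, MT1E, MT1M, MT1JP, MT1A, MT1DP, MT1CP, MT1B, MT1F, MT1G, MT1H, MT1IP and MT1X.

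The RefSeq promoter table held 3 of the 7 metallothioneins and MTF1, and the 250 bases before the start of the 3 metallothionein genes are printed because they carry the element through which MTF1 acts on genes of this family. All are from GRCh38.p14, plus strand, 5′ to 3′, at chr16:56608334-56608583 for MT2A, chr16:56669564-56669813 for MT1H and chr16:56682220-56682469 for MT1X. Capitals mark the core of the metal response element, TGCACNC or TGCGCNC, on either strand.
MT2A: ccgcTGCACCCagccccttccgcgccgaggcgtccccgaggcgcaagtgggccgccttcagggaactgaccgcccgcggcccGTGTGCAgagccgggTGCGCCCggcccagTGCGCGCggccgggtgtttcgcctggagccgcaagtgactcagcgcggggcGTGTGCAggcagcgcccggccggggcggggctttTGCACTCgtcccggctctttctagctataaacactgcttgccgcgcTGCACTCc
MT1H: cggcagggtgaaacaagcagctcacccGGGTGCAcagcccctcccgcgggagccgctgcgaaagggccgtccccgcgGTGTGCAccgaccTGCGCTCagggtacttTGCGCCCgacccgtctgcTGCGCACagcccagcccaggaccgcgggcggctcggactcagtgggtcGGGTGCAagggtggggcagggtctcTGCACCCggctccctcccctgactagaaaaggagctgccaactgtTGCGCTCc
MT1X: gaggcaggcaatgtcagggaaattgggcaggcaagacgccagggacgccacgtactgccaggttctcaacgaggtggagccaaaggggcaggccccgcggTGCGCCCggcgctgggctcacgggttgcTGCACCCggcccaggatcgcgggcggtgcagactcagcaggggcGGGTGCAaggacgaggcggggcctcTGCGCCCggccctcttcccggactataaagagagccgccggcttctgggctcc
The core occurred 7 times before MT2A, 8 times before MT1H and 4 times before MT1X. Of 35097 promoter windows of the same length in the table, 24.8% held it at least once, 0.368% at least 4 times, 0.0313% at least 7 times and 0.0171% at least 8 times. The MTF1 window held 0 matches. The TATA box, TATAAA, stood 29 bases before the start of MT2A and 30 before that of MT1X, counted to its first base, and 10.7% of windows held it. The antioxidant response element, TGACNNNGC, matched once each before MT2A and MT1X and in 10.9% of all windows. TTTATG, the letters of a CDX site, were not in the windows of the 4 members and were in 9.64% of all windows. None of the matches before these genes overlapped a match to another of the motifs searched. A match describes these letters only.

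**Figure D1:**
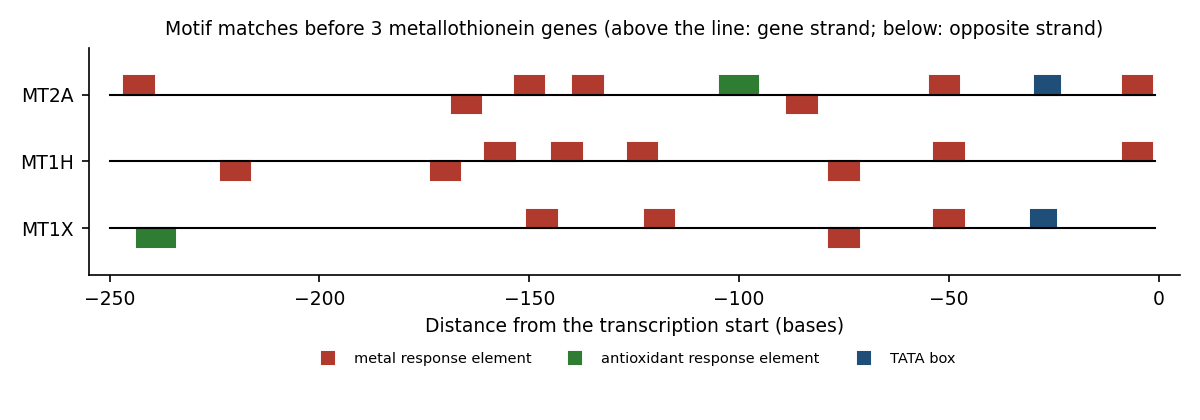
Matches to the searched motifs in the 250 bases before MT2A, MT1H and MT1X, by distance in bases from the transcription start, with matches on the gene's strand above each line and on the opposite strand below it. The metal response element core was matched 7, 8 and 4 times, and each gene had a match that began at 53 or 54 bases before the start.

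Most of the metallothionein readings were shared ones. Of the 11 metallothionein probe sets, 9 had names ending in _x_at, which marks sets with probes that can also match other transcripts. None of the 11 was annotated to several genes. The 2 sets without this mark were 210472_at for MT1G and 217546_at for MT1M. Of the 3 MTF1 sets, 2 had names ending in _s_at, which marks sets that match several transcripts alike. The reference accession was found in RefSeq for 6 of the 14 members. In 5 it belonged to the annotated gene, and in the set 204326_x_at, annotated to MT1X, it belonged to MT1L, a transcribed pseudogene of the cluster. The _x_at sets of different genes are therefore uncertain as separate readings, and their agreement is no count of independent genes.

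The targeted genes were read first. The CDX1 level was 8.21 in HCT116-Vec, 8.24 on the array labelled HCT116-CDX1, 10.46 in LS174T-siVec and 9.06 in LS174T-siCDX1. It did not differ within the HCT116 pair beyond 0.02, so the direction of that pair rests on its label. KRT20, which the series asked about, was at 6.36, 9.38, 8.15 and 5.45 in the same order. Of 8 epithelial markers, EPCAM, KRT8, KRT18 and KRT19 were at 10 or more on all 4 arrays. CDH17, LGALS4 and VIL1 lay between 6.19 and 7.49 in HCT116, and CDH1 was at 8.80 and 8.76 in LS174T. For other cell types, 0 of 7 fibroblast, 0 of 4 endothelial and 0 of 3 neural markers reached 10 on any array. Of 5 leukocyte markers read, LYZ reached 10, in LS174T alone, and PTPRC lay between 6.51 and 6.85. Array medians were 7.04 to 7.06, so that a level of 6 to 7 is no sign of expression.

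Most metallothionein sets read lower on the array labelled HCT116-CDX1 than on HCT116-Vec. The 9 _x_at sets all lay below 0, by 0.64 to 1.45 on the log2 scale, with a median difference of -1.17, or 2.25-fold. Of 10 metallothionein sets measured in this pair, 6 fell, 0 rose and the other 4 stayed within 2-fold, against 0.788% of all 40507 measured probe sets that fell and 0.795% that rose. The median over the 10 sets was -1.15, and over all measured probe sets it was 0.01. Among the 6341 probe sets that reached 10 on an HCT116 array, a limit chosen after the values were seen, 1.77% fell.

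MT2A, the most widely expressed member of the family in human tissues, stood at 13.41 in HCT116-Vec and 12.42 on the array labelled HCT116-CDX1, and at 13.72 in LS174T-siVec and 13.69 in LS174T-siCDX1. The HCT116 difference was -0.98, or 1.98-fold, just short of the 2-fold rule. The highest reading of any probe set on these arrays was 14.45 to 14.62. Whether the upper end of the scale limited the MT2A differences was not tested.

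MT1E was read by a pair of _x_at sets. The set 212859_x_at gave 12.71 and 11.26 in the HCT116 pair and 13.59 and 13.54 in the LS174T pair. It fell by 1.45 in HCT116, which is 2.73-fold and the most of any member. The set 216336_x_at gave 11.55 and 10.43, then 12.31 and 12.17. Both sets put the HCT116-CDX1 array lowest and the LS174T-siVec array highest.

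MT1F, which lies beyond MT1B in the cluster, fell 2.49-fold by 213629_x_at and 2.50-fold by 217165_x_at. The first set read 10.75 and 9.43 in HCT116, with 11.996 and 11.83 in LS174T. The second read 11.44 and 10.11, then 12.42 and 12.20. The gene had the most negative LS174T differences of the _x_at sets, -0.17 and -0.22, both well within 2-fold.

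MT1H, which neighbours MT1G, fell 2.33-fold, from 12.25 in HCT116-Vec to 11.03 on the array labelled HCT116-CDX1. It was level in LS174T, at 12.95 and 12.94. MT1X, at the end of the cluster, was read by 208581_x_at at 12.36 and 11.19 in HCT116, a fall of 2.25-fold, with 13.16 and 13.12 in LS174T. The other set annotated to MT1X, 204326_x_at, whose accession belongs to MT1L, gave 10.88, 10.23, 12.69 and 12.60 in the same order. It had the smallest HCT116 difference of the _x_at sets, -0.64, and the largest difference between the vector arrays, 1.82.

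MT1G, a metallothionein known to be silenced by promoter methylation in several cancers, gave unlike readings from its pair of sets. The _x_at set 204745_x_at read 11.06 and 10.10 in HCT116 and 12.31 and 12.28 in LS174T, with an HCT116 difference of -0.95. The set 210472_at, without the mark of shared probes, read 6.27, 6.41, 6.24 and 6.64 in that order, below the median of each array, and differed by 0.14 in HCT116 and 0.40 in LS174T. The high MT1G reading and its HCT116 difference thus came from the shared set alone.

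MT1M, which stands next to MT1E in the cluster, was the member that differed in the LS174T pair. Its single set rose by 1.46, or 2.74-fold, from 6.65 in LS174T-siVec to 8.11 in LS174T-siCDX1. Its HCT116 readings, 5.30 for Vec and 4.99 for CDX1, were both under 6, so it was not measured there. Over the 40584 probe sets that LS174T cells gave a measured reading for, 0.493% rose and 1% fell. Of the 11 metallothionein sets 1 rose, 0 fell and the other 10 stayed within 2-fold. The siVec reading lay under the array median of 7.04, so the size of the rise is that of a reading from near background.

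**Figure D2:**
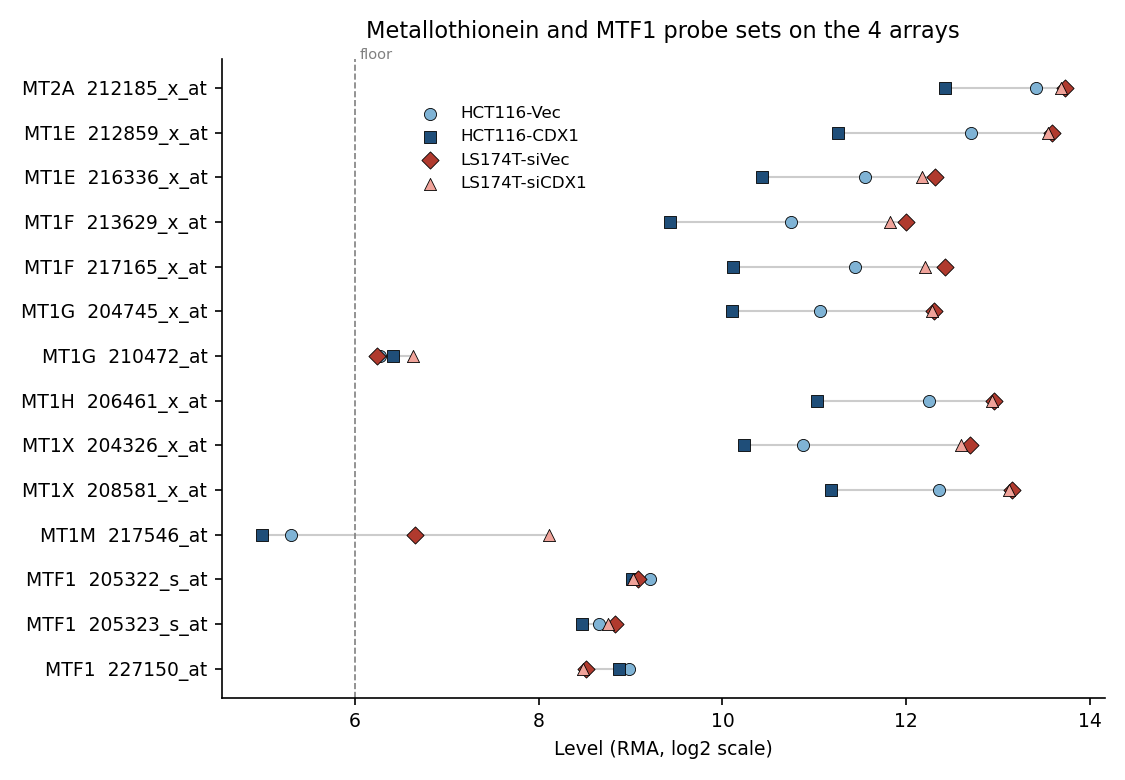
Levels of the 14 member probe sets on the 4 arrays, 1 symbol per array, on the log2 RMA scale, with the floor of 6 as a dashed line. In the 9 metallothionein sets ending in _x_at, the array labelled HCT116-CDX1 lay lowest, HCT116-Vec next and both LS174T arrays highest and close together.

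The 9 _x_at sets shared 1 order of the arrays. Each ran, from low to high, HCT116-CDX1, HCT116-Vec, LS174T-siCDX1 and LS174T-siVec. In LS174T their differences ran from -0.22 to -0.01, with a median of -0.04. The 18 spike-in probe sets had differences up to 0.170 in size in that pair and 0.349 in HCT116. They show the error of the arrays alone and not the spread between cultures, which these data do not hold. The sign of the LS174T median was not stable: over the 11 sets it was -0.04 as deposited and 0.0092 after quantile normalization of the 4 arrays.

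**Figure D3:**
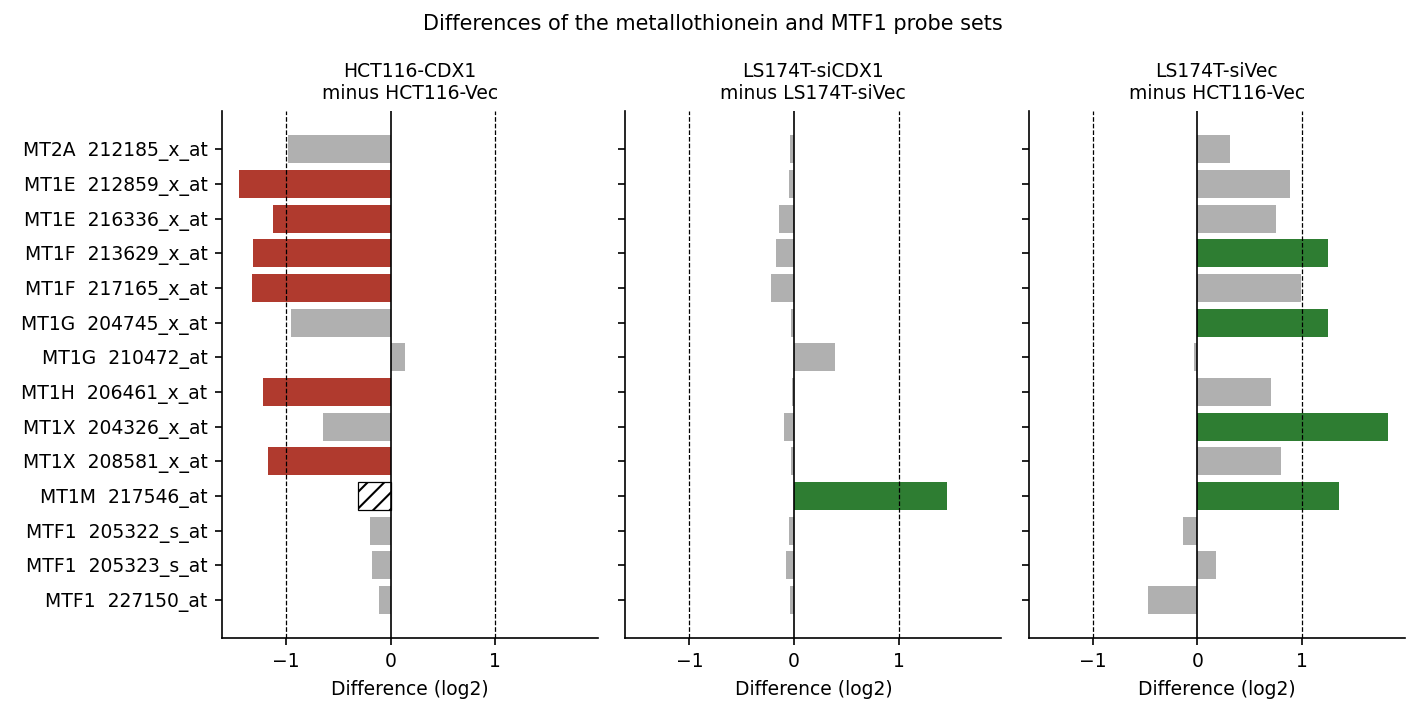
Differences of the 14 member probe sets on the log2 scale in the 3 comparisons, with dashed lines at 2-fold, red bars for falls, green bars for rises, grey bars for smaller differences and a hatched bar where neither array reached 6. Falls of the metallothioneins stood in the HCT116 pair, the rise of MT1M in the LS174T pair, and 4 sets were at least 2-fold higher in LS174T-siVec than in HCT116-Vec, MT1M among them from a reading under 6.

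MTF1, the metal-sensing activator of the family, changed in 0 of its 3 sets in every comparison. Over all measured probe sets 0.788% fell and 0.795% rose in HCT116, and 1% fell and 0.493% rose in LS174T. Between the vector arrays 5.97% were lower and 5.87% higher, so most probe sets did not change either. The MTF1 set 205323_s_at read 8.66 and 8.48 in the HCT116 pair and 8.84 and 8.76 in the LS174T pair. The set 205322_s_at read 9.21, 9.02, 9.08 and 9.03 in the same order of arrays, and 227150_at read 8.99, 8.88, 8.52 and 8.48. All 3 differences were below 0 in HCT116, from -0.20 to -0.11, and in LS174T, from -0.08 to -0.03.

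**Figure D4:**
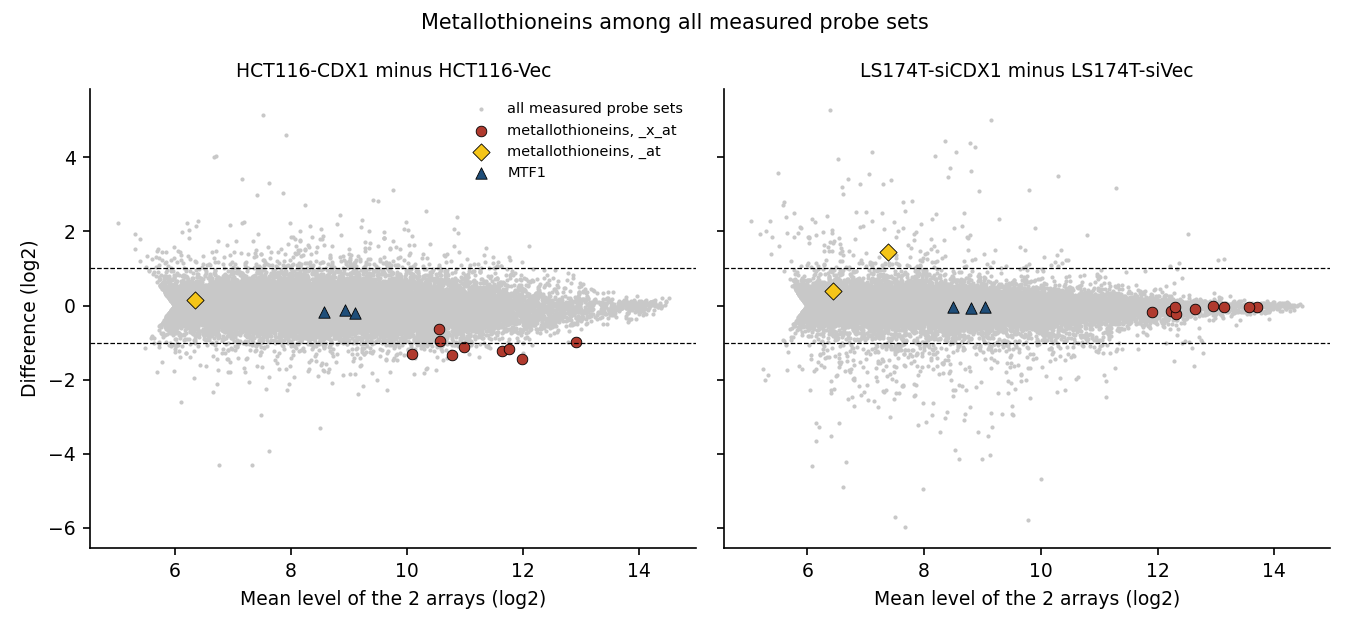
Difference within each pair against the mean level of its 2 arrays, for all measured probe sets (grey) and the members (metallothionein _x_at sets red, other metallothionein sets yellow, MTF1 blue), with dashed lines at 2-fold. The 9 red points lay between -1.45 and -0.64 in HCT116 and between -0.22 and -0.01 in LS174T; MT1M is drawn for LS174T only, since it was not measured in HCT116.

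Median differences in HCT116 were lower for genes of short annotated span than for genes of long span, and the metallothioneins have short spans. Their annotated spans ran from 914 bases for MT2A to 1727 for MT1X. Outside the family, 42 protein-coding genes of up to 1500 bases with a level of 10 or more in the HCT116 pair had a median difference of -0.34, and 33 lay below 0, while 557 genes over 100000 bases had a median of 0.07. The LS174T medians for these bins were -0.08 and -0.08. Of the 42 short genes 1 fell, or 2.38%. In HCT116 the 130 genes over 1500 and up to 3000 bases, the bin of MT1X, had a median of -0.33. The 318 genes over 3000 and up to 6000 bases had a median of -0.21. The 490 genes over 6000 and up to 12000 bases had a median of -0.28. The 813 genes over 12000 and up to 24000 bases had a median of -0.18. Lower values were also read for the mitochondrial ribosomal protein genes, with a median span of 8642 bases and 3 of 76 up to 1500 bases. Their median difference was -0.61 in HCT116, with 74 of 76 below 0, and -0.08 in LS174T. In HCT116 2 of them fell and 0 rose, beside 0.97% of all genes that fell and 0.916% that rose. With a loess on the gene span removed from each difference, the metallothionein median in HCT116 was -0.86. Then 3 of 10 sets were at least 2-fold lower, the 2 of MT1F and 212859_x_at of MT1E. Without the loess 6 of 10 sets fell, beside 0.788% of all measured probe sets. The share over all probe sets with the loess removed was not computed. Spans, bins and the mitochondrial ribosomal protein genes were chosen after the values were seen. Whether gene span bears on the metallothionein differences was not tested, nor what else sets short genes apart on this array.

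**Figure D5:**
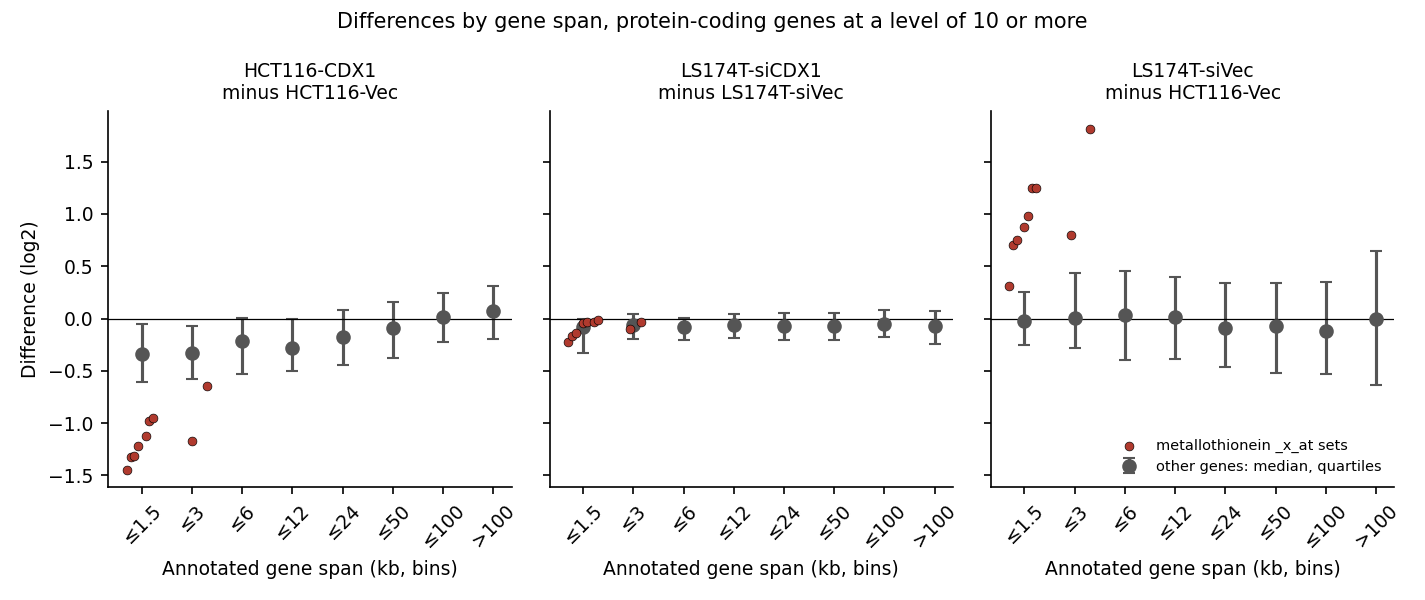
Median difference (log2) with quartiles of protein-coding genes outside the family, in 8 bins of annotated gene span in kilobases, for the 3 comparisons, with the 9 metallothionein _x_at sets as red points in their bins. In HCT116 the medians ran from -0.34 in the shortest bin to 0.07 in the longest, with all 9 red points below the lower quartile of their bin; the LS174T medians showed no such slope.

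Several shared metallothionein sets read higher in LS174T than in HCT116 already with the vectors. Between LS174T-siVec and HCT116-Vec, which share an array with the LS174T pair and the HCT116 pair, 4 of 11 metallothionein sets were at least 2-fold higher, 0 were lower and 7 differed by less. Over all 41097 probe sets measured there, 5.87% were at least 2-fold higher and 5.97% lower. The highest was 204326_x_at at 1.82, followed by 204745_x_at of MT1G and 213629_x_at of MT1F at 1.25 each. The fourth was MT1M, at 5.30 and 6.65, where neither reading is a sign of expression. With levels under 6 set to 6 its difference was 0.65 and 3 sets were left, so MT1M is not evidence of a higher level in LS174T-siVec. MT2A had the smallest difference of the _x_at sets, 0.32, with readings of 13.41 and 13.72. The set 212859_x_at of MT1E, at 12.71 and 13.59, differed by 0.88. The median of the 11 sets was 0.88, beside 0.03 for all measured probe sets.

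A single limma model of the 4 arrays, over 41999 probe sets, held a term for the CDX1 label and another for the line, which left 1 residual degree of freedom. The line term set the mean of both LS174T arrays against that of both HCT116 arrays, so it takes in the low HCT116-CDX1 readings. Its estimates are therefore not the differences between the vector arrays, which for 204326_x_at was 1.82. Without replicate cultures, its SE and p-values do not measure the spread between cultures of a line. For the cell line, 4 of 11 metallothionein sets passed a Benjamini-Hochberg adjusted p of 0.05, beside 15.6% of all probe sets. The set 204326_x_at was higher in LS174T by 2.09 ± 0.22 (SE), with an adjusted p of 0.0074 in limma.  MT1G by 204745_x_at was higher by 1.71 ± 0.27 (SE, limma adjusted p = 0.020), and MT1F by 213629_x_at by 1.82 ± 0.37 (SE, limma adjusted p = 0.038). The fourth was MT1M, whose HCT116 readings were both under 6. With levels under 6 set to 6, an alternative chosen after seeing the data, its limma adjusted p was 0.098 and 2 of the 11 sets passed, beside 13% of all probe sets. The 6 other _x_at sets were also above 0 but had limma adjusted p values of 0.051 to 0.14, and 210472_at of MT1G had 0.80. After quantile normalization 9 of the 11 sets passed, beside 18.5% of all probe sets. The count of sets that differ between the lines thus depends on the scaling and the floor. For the CDX1 label limma called 0 of 41999 probe sets (0%), with 1430 at an unadjusted p under 0.05, among them 1 metallothionein set, MT1M. Its limma adjusted p was 0.9999, and its HCT116 readings were under the floor.

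The rest of the family was read by 3 genes. MT1HL1, a retrotransposed copy outside the cluster, had an _x_at set at 12.24 and 11.24 in HCT116 and 12.69 and 12.63 in LS174T, and its HCT116 difference of -0.997 came just short of 2-fold. MT4, known from stratified epithelium, read 7.49, 7.40, 7.88 and 7.47. MT3, known from the brain, differed by -0.15 and -0.17 in the pairs. Of these 3 genes 0 changed in any comparison, with medians of -0.15 in HCT116, -0.17 in LS174T and 0.39 between the vector arrays, beside 0.97% of all genes that fell in HCT116.

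No measured zinc transporter gene changed within a pair. Of 8 zinc exporter genes 0 changed in either pair, and their medians were 0.02 in HCT116 and -0.09 in LS174T. Over all measured genes 0.97% fell and 0.916% rose in HCT116, and 1.25% fell and 0.598% rose in LS174T. Of 13 measured zinc importer genes 0 changed either, with medians of 0.07 and -0.09. Between the vector arrays SLC30A1, the exporter of the plasma membrane and a target of MTF1, was higher by 1.38 in LS174T-siVec, with levels of 9.52 in HCT116-Vec, 9.45 on the array labelled HCT116-CDX1, 10.90 in LS174T-siVec and 10.27 in LS174T-siCDX1. SLC30A4, another exporter, and SLC39A8, an importer of zinc and manganese, were 4.14-fold and 4.40-fold lower there. Their LS174T-siVec readings, 6.38 and 6.68, lay under the array median of 7.04, so these sizes run into background. The medians of exporters and importers between the vector arrays were 0.16 and -0.19, beside 6.03% of all genes higher and 7.33% lower in LS174T-siVec.

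Other genes described as MTF1 targets and the copper handling genes also changed in small numbers. Of 12 measured target genes 0 changed in either pair, with medians of -0.07 and -0.24. The shares over all genes were 0.97% lower and 0.916% higher in HCT116 and 1.25% lower and 0.598% higher in LS174T. CEBPA and SLC30A1 were higher in LS174T-siVec than in HCT116-Vec, CEBPA by 1.55, and the list median there was -0.02. Of 15 copper handling genes measured in HCT116, HEPH, which encodes a copper ferroxidase of iron export, rose from 5.61, a reading under the floor, to 10.22, which is at least 18.7-fold when taken from 6. Of the others 0 changed, 9 lay below 0, and the list median was -0.33, beside 0.916% of all genes that rose and 0.97% that fell. In LS174T 0 of 17 changed and the median was -0.05. Between the vector arrays HEPH was at least 26.4-fold higher, again taken from 6, and STEAP2, a metalloreductase gene, lower by 1.92, with a median of 0.19 over 16 genes, beside 6.03% of all genes higher and 7.33% lower.

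Stress genes that metals can also raise changed in both directions in HCT116. Of 14 measured heat shock and metal stress genes 1 rose and 2 fell, beside 0.916% and 0.97% of all genes, with a median of -0.29. GCLM, a subunit gene of the enzyme of glutathione synthesis, went from 11.37 to 9.63, a fall of 3.34-fold. HSPE1, a mitochondrial chaperonin gene, fell 2.10-fold from 12.70 to 11.63, and SLC7A11, the cystine transporter gene, rose 4.16-fold from 8.92 to 10.98. In LS174T 0 of the 14 changed, with a median of -0.12, beside 1.25% of all genes that fell and 0.598% that rose. Between the vector arrays HMOX1 and TXNRD1 were lower in LS174T-siVec by 4.39-fold and 2.37-fold and SLC7A11 higher by 3.09-fold. The list median there was -0.24, and over all measured genes 7.33% were lower and 6.03% higher.

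Glucocorticoids are known to raise metallothionein transcription, and their response genes were read as a list. In HCT116 TSC22D3, a hormone-induced leucine zipper gene, rose by 1.16, and CEBPD and the kinase gene SGK1 fell by 1.23 and 1.03, among 9 measured genes with a median of -0.27, beside 0.916% of all genes that rose and 0.97% that fell. In LS174T 0 of 8 changed and the median was 0.17, beside 1.25% of all genes that fell and 0.598% that rose. LS174T-siVec read lower than HCT116-Vec in 5 of 9, namely ERRFI1, SGK1, the receptor gene NR3C1 itself, KLF9 and DUSP1, and higher in TSC22D3, with a median of -1.07, beside 7.33% of all genes lower and 6.03% higher. NR3C1 stood at 8.96 and 8.68 in the HCT116 arrays and at 6.51 and 6.57 in the LS174T arrays. In LS174T-siVec SGK1 and KLF9 were at 6.39 and 6.57. Like NR3C1 there, they lay under the array median of 7.04, so the sizes of these differences run into background. In the small list of zinc-sensing and partner genes 0 of 5 changed in any comparison, with medians of 0.01, -0.08 and 0.53; GPR39, a zinc receptor, had its largest difference in LS174T at -0.68 and the channel kinase gene TRPM7 between the vector arrays at 0.84.

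The genes most like the metallothioneins in the 3 comparisons were named by distance from the family medians of -1.15, -0.04 and 0.88, as the root mean square over the 3 differences among 16411 genes. They were NDUFB2 at a distance of 0.11, LINC03011 at 0.12, SLC38A6 and GTF3C6 at 0.14 each and SAP30 at 0.15. NDUFB2 encodes a subunit of respiratory complex I, and SAP30 a component of a histone deacetylase complex. NDUFB2 read 11.63 and 10.62 in HCT116 and 12.62 and 12.66 in LS174T. SLC38A6 read 6.42 and 5.40 in HCT116, the second under the floor of 6, so neither reading is a sign of expression there. The measure rests on 4 arrays, and the comparison of the vector arrays shares an array with each pair.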

How the data were processed

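Total RNA of 4 cultures was hybridised to 1 Affymetrix array each. The deposited values were log2 expression made by the authors with RMA, per the submitters' processing notes, and were taken unaltered. RMA corrects background, equalises arrays and summarises the probes of a set; for its version and the arrays it ran on together, the entry is: not given in the sources used here. Per the labels' protocols biotinylated cRNA was made from 2 µg of RNA.

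The platform annotation named 1 gene for 41097 of 54675 probe sets, several for 1801 and none for 11777. RefSeq (GRCh38.p14) held 41043 of the gene identifiers and 0 symbols differed. Members were read set by set; in the lists, a gene (19775 in all) was represented by its set of highest mean. A probe set was measured at a level of at least 6 in the brighter of 2 arrays and changed at a difference of at least 1. No p-value was computed for 2 arrays. How the 2-fold rule and the limma fit behave under the spread between cultures was not tested. All 4 arrays were fitted with limma 3.58.1 in R 4.3.3. The rest was done in Python 3.11.15 with pandas 2.3.3, numpy 2.4.6 and statsmodels 0.14.6.

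Members, the 8 lists and the tests were chosen with earlier results of these data known. Named genes were the members, up to 6 changed genes per list by size (otherwise the 2 largest differences), and the 5 genes of nearest pattern; MT3, DUSP1 and the mitochondrial ribosomal genes were named after their values were seen. Alternatives were no floor, a floor of 7, levels under 6 set to 6, quantile normalization, a loess on the mean level, sets without shared probes, means over the sets of a gene, and thresholds of 1.5-fold and 3-fold, and for limma no cell line term, no floor, quantile normalization, or an intensity trend with robust moderation. A loess on gene span, leaving out 204326_x_at and, in limma, levels under 6 set to 6 were added after seeing the data.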

Additional observations from a re-analysis of the deposited data

Results flagged for a closer look

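HEPH, the copper ferroxidase gene of the copper handling list, moved in opposite directions in the pairs by more than 1.5-fold: it was higher by 4.61 on the array labelled HCT116-CDX1 and its LS174T difference was -0.69. The first value is taken from an HCT116-Vec reading of 5.61, under the floor of 6, and is 4.22 when taken from 6. By label CDX1 is raised in the HCT116 pair and lowered in the LS174T pair. In both pairs HEPH thus read higher on the array with more CDX1 by label, so the opposite signs are no conflict between the lines. The difference between the pairs was not tested, since each rests on 1 array per group.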

How the results depend on the processing

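Of 102 results recomputed under an alternative, 85 kept their value within the limits set: for a count 1.5 times, for a median 1 SD of the spike-in differences. Many of the 85 were counts of 0 that stayed at 0. These were sets higher in HCT116, lower in LS174T or lower between the vector arrays, and sets passing for the CDX1 label. Their agreement says little about how stable the other results were. Without probe sets of shared probes, 1 set was left in HCT116 (median 0.14, 0 lower) and 2 in LS174T (median 0.93) and between the vector arrays (median 0.66, 1 higher), so the HCT116 fall rests wholly on shared sets. The LS174T median was 0.0092 after quantile normalization, 0.021 after the loess on mean level and 0.051 after the loess on gene span, which gave -0.86 and 3 sets lower in HCT116. With means over the sets of a gene, 3 of 6 genes were lower in HCT116. At 3-fold, 0 sets were lower in HCT116, 0 higher in LS174T and 1 higher between the vector arrays, where 1.5-fold gave 9. For the cell line limma called 9 sets with quantile normalization and 2 with levels under 6 set to 6. Without 204326_x_at no count or median left its limits. The limma fit without a cell line term gives no value for the cell line. The limma fit holds the cell line as a block, and without it 0 sets passed for the CDX1 label, as with it; there are no replicate numbers to pair by.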
